A study of Mus musculus with 103 samples.

Results

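Ifit1, Ifit2, Ifit3, Mx1, Mx2, Oas1a, Oas2, Oas3, Oasl1 and Oasl2 are antiviral effector genes of the Ifit, Mx and Oas families, and their RNA was followed in mouse macrophages given a bacterial lipid for up to 24 h. The 10 genes were taken by symbol from a table of 24014 genes, 10605 of which reached an RPKM (reads scaled to transcript length and library size) of at least 1 in 2 libraries and were tested. All 10 were tested, 6 of them on the untreated libraries alone and 4 (Ifit3, Mx1, Mx2 and Oas2) only through the libraries with KLA. The series addressed lipid metabolism and inflammation in macrophages, and 8 of its 103 samples were analysed here. Macrophages were washed from the peritoneum of male C57BL/6 mice of 6 to 8 weeks, 3 to 4 days after injection of thioglycollate broth, and were kept overnight in 0.5% serum before treatment, the untreated cells included. RNA with poly(A) tails was sequenced from cells given 100 ng/ml KLA (Kdo2-lipid A, a pure agonist of the lipopolysaccharide receptor TLR4) for 1 h, 6 h, 12 h or 24 h, from untreated cells that served for 1 to 12 h, and from other untreated cells that served for 24 h. Each of these 6 conditions had 1 library, and the sources used here do not say how many mice gave the cells of a library. Peak lists of chromatin immunoprecipitation were used for LXR, the oxysterol receptor, and for SREBP1, a transcription factor of lipid synthesis, both from cells given 1 µM GW3965, an LXR agonist, without KLA. The SREBP1 label gives 18 h of GW3965 and the header of the LXR list gives 5 h. The treatment characteristic of the LXR sample reads control, and the sample was used here under its title.

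As background, these genes are classic targets of interferon. TLR4 signals through the adaptor TRIF to the transcription factor IRF3, which switches on Ifnb1, and the secreted interferon-β then acts on its receptor (Ifnar1 and Ifnar2) to switch on genes that carry interferon-stimulated response elements. Ifit proteins bind foreign RNA and hold back its translation, Mx proteins are dynamin-like GTPases that trap viral nucleocapsids, and Oas enzymes make 2'-5'-linked oligoadenylates, a messenger that leads to the decay of RNA. Oasl1 and Oasl2 are Oas-like proteins, and mouse Oasl1 is known to restrain translation of Irf7 RNA. C57BL/6 mice carry a disrupted Mx1 allele, so an Mx1 RNA level is no measure of a working Mx1 protein.

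No p-value is given for any difference, since each condition had 1 library and biological spread could not be measured. Ratios carry 95% exact intervals on the reads recovered from RPKM, which cover counting error only. The library totals inferred from the RPKM values were 2205187 to 2674826 reads, few for this assay. In a transcript of 1 kb, 3 reads, taken as the most that a count of 0 allows, were worth 1.12 to 1.36 RPKM. In keeping with the label, 8 of 8 macrophage markers had reads and summed to 6534 to 10817 RPKM with KLA and to 9237 to 11262 RPKM without it. Markers of lymphocytes summed to 6.49 to 10.6 RPKM with KLA and 11.9 to 13.3 RPKM without, mast cell markers to 0.361 to 1.17 and 0.593 to 0.798 RPKM, and fibroblast and mesothelial markers to 97.9 to 182 and 114 to 121 RPKM. Neutrophil markers summed to 43.3 to 123 RPKM with KLA and 40.0 to 45.5 RPKM without, nearly all of it S100a8, while Mpo was listed at 0 throughout and S100a9 did not exceed 0.872 RPKM. S100a8 was at 118 RPKM after 24 h, against 45.5 RPKM in untreated cells, and Camp had 7 reads at 12 h and at 24 h and was listed at 0 in the other libraries, so both neutrophil markers that were tested passed the 2-fold threshold upwards at 24 h. These sums come from bulk RNA, in which fewer cells of a type and less RNA per cell cannot be told apart, and their part in the results below was not tested.

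The 10 genes lay in 4 groups of neighbours on mouse build mm9. Ifit2, Ifit3 and Ifit1 stood in this order within 99.3 kb of chromosome 19 (chr19:34625184-34724499), Mx1 and Mx2 within 114 kb of chromosome 16 (chr16:97668642-97782508), Oas2, Oas3 and Oas1a within 177 kb of chromosome 5 (chr5:121180342-121357534), and Oasl2 and Oasl1 within 41.0 kb of the same chromosome (chr5:115346943-115387920). RefSeq promoters (300 bases, from 250 before to 50 after the annotated start, build GRCm38.p6) were at hand for 7 of the 10 genes, with 2 for Ifit2, and those of Mx1, Mx2 and Oas2 were not analysed here. The core of the interferon-stimulated response element (GAAA, 2 bases of any kind and GAAA again, on either strand and with overlapping matches counted) was present in 4 of these 7 genes (Ifit1, Ifit3, Oas1a and Oas3) and in 3.99% of the 27025 genes with a promoter. A shorter form within it (AA, 2 bases of any kind and GAAA) was present in 5 of 7, Oasl1 being the addition, against 26.7% of all genes. The κB consensus was present in 3 of 7 (Ifit2, Oas3 and Oasl1) against 9.55%. A match is a description of the letters and shows no binding. The promoters of the 4 genes with the longer motif, in capitals, and of Oasl1, 1 of the genes highest at 1 h and without that motif, are printed 5′ to 3′ in the direction of the gene.
Ifit1: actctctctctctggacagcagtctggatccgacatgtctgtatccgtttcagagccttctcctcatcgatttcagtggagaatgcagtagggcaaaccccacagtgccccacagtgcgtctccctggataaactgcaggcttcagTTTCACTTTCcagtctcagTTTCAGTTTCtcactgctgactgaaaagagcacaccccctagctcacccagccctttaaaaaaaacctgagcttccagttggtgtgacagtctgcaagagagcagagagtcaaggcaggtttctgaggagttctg
Ifit3: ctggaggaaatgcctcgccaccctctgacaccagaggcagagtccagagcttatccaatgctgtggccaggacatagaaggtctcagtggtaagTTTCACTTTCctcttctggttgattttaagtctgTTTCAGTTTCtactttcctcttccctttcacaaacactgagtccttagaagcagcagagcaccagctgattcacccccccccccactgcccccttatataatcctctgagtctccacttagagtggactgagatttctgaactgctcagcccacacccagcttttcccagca
Oas1a: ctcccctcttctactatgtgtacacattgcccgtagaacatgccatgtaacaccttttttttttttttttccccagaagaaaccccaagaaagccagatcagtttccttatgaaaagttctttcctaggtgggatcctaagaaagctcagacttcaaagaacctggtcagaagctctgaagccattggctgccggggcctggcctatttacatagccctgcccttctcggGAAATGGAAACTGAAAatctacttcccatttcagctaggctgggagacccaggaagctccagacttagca
Oas3: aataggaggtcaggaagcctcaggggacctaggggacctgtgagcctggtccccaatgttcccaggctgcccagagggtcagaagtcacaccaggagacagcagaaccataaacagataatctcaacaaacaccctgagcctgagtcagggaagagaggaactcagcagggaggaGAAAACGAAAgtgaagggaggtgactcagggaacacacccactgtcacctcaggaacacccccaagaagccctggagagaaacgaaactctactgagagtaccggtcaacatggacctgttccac
Oasl1: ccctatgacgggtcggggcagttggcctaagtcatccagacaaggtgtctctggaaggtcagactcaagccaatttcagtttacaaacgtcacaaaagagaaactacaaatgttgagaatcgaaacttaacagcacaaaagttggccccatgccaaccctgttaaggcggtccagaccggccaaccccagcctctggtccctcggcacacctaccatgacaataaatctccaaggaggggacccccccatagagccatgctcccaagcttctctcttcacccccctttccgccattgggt
They lay at chr19:34640639-34640938 (plus strand) for Ifit1, chr19:34583279-34583578 (plus) for Ifit3, chr5:120907476-120907775 (minus) for Oas1a, chr5:120777610-120777909 (minus) for Oas3 and chr5:114922990-114923289 (plus) for Oasl1. Ifit1 and Ifit3 carried the same pair of 10-base matches in the same order, TTTCACTTTC and then TTTCAGTTTC, which read GAAAGTGAAA and GAAACTGAAA on the opposite strand. The pair began 104 and 85 bases before the start of Ifit1 and 156 and 122 bases before that of Ifit3. In Oas1a the matches GAAATGGAAA and GAAACTGAAA overlapped and began 20 and 14 bases before the start, and in Oas3 a single GAAAACGAAA began 75 bases before it.

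In untreated cells Oasl2 and Oas1a had the highest levels, and Ifit3, Mx1, Mx2 and Oas2 had 10 reads or fewer. Oasl2 (NM_011854) was the highest at 11.7 RPKM in the untreated library for 1 to 12 h and 12.8 RPKM in that for 24 h, and Oas1a followed at 10.8 and 9.01 RPKM. Oasl1 was at 5.13 and 5.46 RPKM and Oas3 at 2.98 and 2.87 RPKM in the same libraries. Ifit3, Mx1 and Oas2 had 3 to 10 reads each, with 0.681 and 1.16 RPKM for Ifit3, 0.673 and 0.430 RPKM for Mx1 and 0.704 and 1.00 RPKM for Oas2. Mx2 was the lowest, listed at 0 in the library for 1 to 12 h and at 0.319 RPKM (2 reads) in that for 24 h. The 10 genes together held 0.0113% and 0.0129% of the reads in genes in the 2 untreated libraries. Between these libraries 9 of 10 genes had a ratio whose interval covered 1. Ifit2 was the exception, at 2.45 RPKM in the untreated library for 24 h and 1.03 RPKM in that for 1 to 12 h, a ratio of 2.37 (1.07 to 5.76, on 25 and 9 reads), where 16.4% of all genes tested had an interval above 1 and 12.4% below 1. Ifit1 stood at 3.37 and 1.55 RPKM in the same libraries (ratio 2.18, 0.971 to 5.35), so the Ifit folds below depend on the untreated library more than the Oas folds do.

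After 1 h of KLA the 10 genes had split, with Ifit1 and Oasl1 far higher than in untreated cells, Ifit2 and Mx2 higher on few reads, and the other 6 not distinguishable from untreated cells at this depth. Ifit1 was at 93.7 RPKM after 1 h of KLA and at 1.55 RPKM in untreated cells, a ratio of 60.5 (31.7 to 133, on 593 and 9 reads), and set against the untreated library for 24 h the ratio was 27.8 (18.3 to 44.2). Oasl1 was at 50.0 RPKM after 1 h and at 5.13 RPKM in untreated cells, a ratio of 9.76 (6.42 to 15.5), and its ratio to the untreated library for 24 h was 9.16 (6.26 to 13.9). These were the genes with the 22nd and 86th highest log2 ratio of RPKM + 1 among the 10605 tested. Ifit2 was at 5.28 RPKM after 1 h and at 1.03 RPKM in untreated cells, a ratio of 5.10 (2.49 to 11.8). Mx2 had 9 reads after 1 h and 0 in untreated cells. It was 2.76-fold higher against a floor of 3 reads, with 1.81 as the lower end of its counting interval. The 4 genes at least 2-fold higher on the scale of log2(RPKM + 1) compare with 3.65% of all genes tested, and none of the 10 was 2-fold lower, where 4.09% of all genes were. The same 4 had a counting interval above 1, as 6.76% of all genes did. Against the untreated library for 24 h the count was 2 of 10, Ifit1 and Oasl1 (4.01% of all genes), and the ratio of Ifit2 was 2.16 (1.31 to 3.64).

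Oas1a, Oas2, Oas3, Oasl2, Ifit3 and Mx1 were not above their untreated level at 1 h beyond counting error. Ifit3, whose promoter holds the same pair of motif matches as that of Ifit1, was at 1.04 RPKM after 1 h (5 reads) and at 0.681 RPKM in untreated cells (3 reads), a ratio of 1.53 (0.298 to 9.86). Oasl2, which lies beside Oasl1, was at 8.37 RPKM after 1 h and at 11.7 RPKM in untreated cells (ratio 0.715, 0.506 to 1.01), while set against the untreated library for 24 h its interval lay below 1 (ratio 0.653, 0.470 to 0.902). Oas1a, Oas3 and Mx1 had ratios of 0.837 (0.535 to 1.31), 1.04 (0.621 to 1.74) and 0.689 (0.101 to 4.07). Oas2 had 1 read after 1 h and 6 in untreated cells (ratio 0.153, 0.00333 to 1.26), and 10 in the untreated library for 24 h (ratio 0.108, 0.00248 to 0.758). Oas2 and Oasl2 were the 2 of 10 genes with an interval below 1 against that library, where 26.5% of all genes tested had one. With 3 to 5 reads on each side, the intervals of Ifit3 and Mx1 hold differences of more than 3-fold in both directions. The median log2 ratio of the 10 genes at 1 h was 0.16, beside -0.16 for all genes tested.

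**Figure D1:**
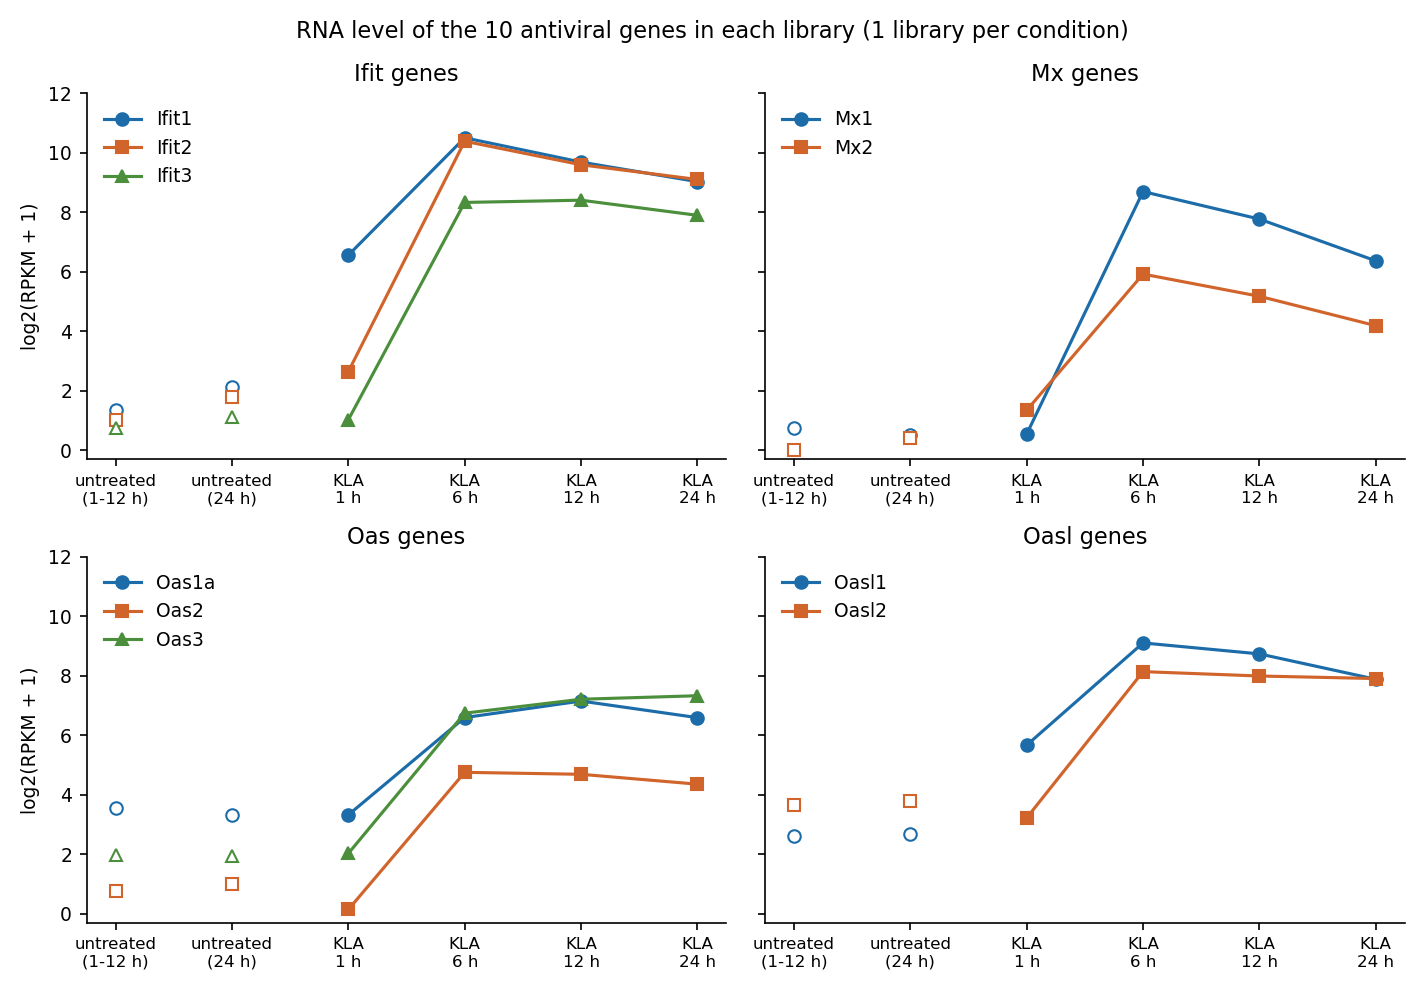
RNA level as log2(RPKM + 1) of each gene in the 6 libraries, 1 library per point, with untreated libraries as open symbols and the times of KLA joined by a line. Ifit1 (93.7 RPKM) and Oasl1 (50.0 RPKM) stand apart at 1 h, all 10 genes are high at 6 h, and after 6 h the Mx genes descend most steeply while Oas3 does not descend.

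After 6 h of KLA all 10 genes were far above untreated cells, from 8.88-fold for Oas1a to 1302-fold for Ifit2, while 9.35% of all genes tested were 2-fold or more above untreated cells and 22.4% as far below. All 10 also had a counting interval above 1 against 1 h, where 14.2% of all genes did. Together they held 1.64% of the reads in genes after 6 h, against 0.0113% in untreated cells. Ifit2 and Ifit1 had the 2 highest log2 ratios of all genes tested, and 6 of the 10 genes were among the highest 50. The rank of a gene on this scale also depends on its low untreated level, which was under 2 RPKM for both Ifit genes.

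Of the Ifit genes, which sense foreign RNA, Ifit1 (NM_008331) was at 1458 RPKM after 6 h and at 1.55 RPKM in untreated cells, a ratio of 942 (496 to 2060). Ifit2 (NM_008332), whose product is also linked to cell death, was at 1346 RPKM after 6 h and at 1.03 RPKM in untreated cells (ratio 1302, 686 to 2848). Ifit3 (NM_010501), a partner of Ifit1 in human cells, was at 322 RPKM after 6 h and at 0.681 RPKM in untreated cells (ratio 473, 162 to 2296, on 3 untreated reads). The level of Ifit2 had therefore come close to that of Ifit1 at 6 h, where its ratio to 1 h was 255 (193 to 344), beside 15.6 (14.3 to 16.9) for Ifit1. Against the untreated library for 24 h the folds at 6 h were 432 (288 to 683) for Ifit1, 550 (372 to 850) for Ifit2 and 278 (127 to 757) for Ifit3.

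Of the Mx genes, Mx1 (NR_003520) was at 415.5 RPKM after 6 h and at 0.673 RPKM in untreated cells, a ratio of 618 (241 to 2268, on 4 untreated reads). Mx2 (NR_003508), at 59.9 RPKM after 6 h and at 0 in untreated cells, was at least 107-fold higher. Each Mx symbol had 2 transcripts in the table, whose values at 6 h were nearly alike, 417 and 415.5 RPKM for Mx1 and 59.7 and 59.9 RPKM for Mx2, so the choice of transcript did not bear on these folds.

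The Oas genes had the smaller ratios, and Oas1a, with the smallest, had the second highest untreated level. Oas1a (NM_145211), a synthetase with near relatives in tandem, was at 96.0 RPKM after 6 h and at 10.8 RPKM in untreated cells (ratio 8.88, 6.52 to 12.4). Oas3 (NM_145226), the longest synthetase, was at 106 RPKM after 6 h and at 2.98 RPKM in untreated cells (ratio 35.7, 25.0 to 52.8). Oas2 (NM_145227) was at 26.1 RPKM after 6 h and at 0.704 RPKM in untreated cells (ratio 37.0, 16.8 to 102), the lowest level of the 10 genes at 6 h. Oasl1 (NM_145209) was at 552 RPKM after 6 h and at 5.13 RPKM in untreated cells (ratio 108, 72.2 to 168), and Oasl2 at 282 and 11.7 RPKM (ratio 24.1, 19.3 to 30.4). Oas1a and Oas3 did not differ in level per length at 6 h or at 12 h beyond counting error, the only such pair of neighbours in the order of the 10 genes at those times.

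**Figure D2:**
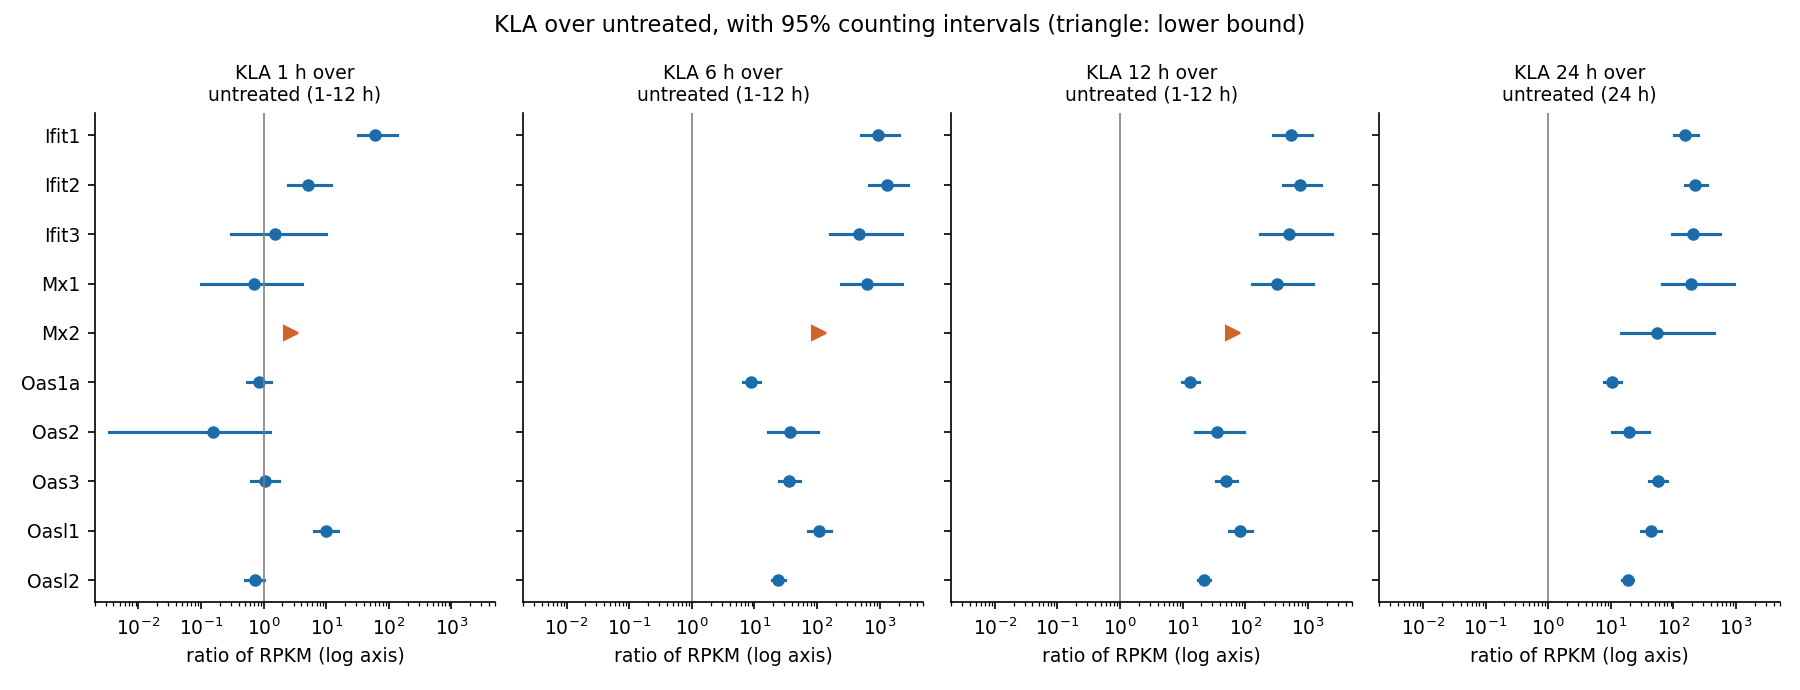
Ratio of RPKM, KLA over the untreated library of the same period, on a log axis for each gene and time, with 95% counting intervals as lines and lower bounds as triangles where the untreated library had 0 reads. At 1 h 6 of 10 intervals cover 1, and at 6 h, 12 h and 24 h all 10 ratios lie above 1.

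All 10 genes also passed the 2-fold threshold upwards at 12 h and at 24 h, where 8.88% and 9.98% of all genes tested passed it upwards and 16.3% and 10.6% downwards. With the untreated libraries exchanged the count was again 10 at each of 6 h, 12 h and 24 h, where 9.04%, 9.74% and 10.3% of all genes passed. In each of the 10 genes the libraries at 6, 12 and 24 h lay above both untreated libraries and that at 1 h. How many of all genes tested did so was not counted, so it is not read as a trait of these genes. Ifit3, Mx1, Mx2 and Oas2 were also tested only through the libraries with KLA. The median log2 ratio of the 10 genes was 6.21 at 6 h, 5.68 at 12 h and 5.29 at 24 h, beside -0.46, -0.32 and -0.09 for all genes. With Mx2 set at its bound the medians at 6 h and 12 h were 6.62 and 6.05. At 24 h, against the untreated library of that time, Ifit2 was 225-fold higher (152 to 348), Ifit3 205-fold (94.1 to 561), Mx1 191-fold (64.9 to 927), Ifit1 155-fold (103 to 246), Oas3 55.9-fold (40.1 to 80.5) and Oasl1 43.2-fold (30.1 to 64.3). Mx2 had a ratio of 54.2 (14.7 to 453, on 2 untreated reads), and Oas2, Oasl2 and Oas1a stood at 19.5 (10.4 to 41.4), 18.7 (15.4 to 23.0) and 10.6 (7.81 to 14.8).

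The later course differed between the genes, with the Mx genes, Ifit1, Ifit2 and Oasl1 falling off and Oas1a, Oas2, Oas3, Ifit3 and Oasl2 held for longer. Of the 10 genes 7 had their highest level at 6 h, Ifit3 and Oas1a had it at 12 h and Oas3 at 24 h. Between 12 h and 6 h, 6 of 10 genes had a ratio whose interval lay below 1 (11.5% of all genes tested) and 2, Oas1a and Oas3, above 1 (18.4%), while Ifit3, at 340 RPKM at 12 h and 322 RPKM at 6 h, and Oas2, at 24.9 and 26.1 RPKM, covered 1. Mx1 was at 218 RPKM at 12 h and 415.5 RPKM at 6 h (ratio 0.526, 0.493 to 0.561), Ifit1 at 827 and 1458 RPKM (0.567, 0.548 to 0.587), Ifit2 at 777 and 1346 RPKM (0.577, 0.561 to 0.594) and Mx2 at 35.3 and 59.9 RPKM (0.589, 0.494 to 0.702). Oasl1 fell less, to 427 RPKM at 12 h, against 552 RPKM at 6 h (0.774, 0.732 to 0.819), and Oasl2 was at 255 and 282 RPKM (0.903, 0.849 to 0.961). Oas1a was at 142 RPKM at 12 h and 96.0 RPKM at 6 h (1.47, 1.30 to 1.67) and Oas3 at 148 and 106 RPKM (1.39, 1.29 to 1.49).

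By 24 h 8 of 10 genes had an interval below 1 against 6 h (10.1% of all genes tested), and 5 of them, Ifit1, Ifit2, Mx1, Mx2 and Oasl1, were at least 2-fold lower (3.49%). Mx1 had fallen 5.07-fold (4.64 to 5.55), to 82.0 RPKM at 24 h, against 415.5 RPKM at 6 h, and Mx2 3.46-fold (2.79 to 4.32), to 17.3 RPKM at 24 h, against 59.9 RPKM at 6 h. Ifit1 was 2.78-fold lower (2.68 to 2.89) at 524 RPKM, Ifit2 2.44-fold (2.37 to 2.52) at 551 RPKM and Oasl1 2.34-fold (2.19 to 2.50) at 236 RPKM. Ifit3 at 239 RPKM, Oas2 at 19.5 RPKM and Oasl2 at 240 RPKM were lower by less, 1.35-fold (1.25 to 1.46), 1.33-fold (1.10 to 1.62) and 1.18-fold (1.11 to 1.25). Oas1a was at the same level within counting error, at 95.9 RPKM at 24 h and 96.0 RPKM at 6 h (ratio 0.998, 0.875 to 1.14). Oas3 was higher, at 160 RPKM at 24 h and 106 RPKM at 6 h (ratio 1.51, 1.40 to 1.62), where 36.8% of all genes tested had an interval above 1.

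The late directions of Oas1a, Oas3 and Oasl2 depend on how the libraries are scaled. Rescaling by the median of ratios over 8256 genes raises the values of KLA 6 h relative to those of KLA 24 h, since the median log2 ratio of all genes between these libraries was 0.34. After rescaling Oas1a fell between them (ratio 0.751, 0.658 to 0.857), and Oas3 was still higher (1.13, 1.05 to 1.22). Between 24 h and 12 h Oas3 was higher on the deposited scale (1.09, 1.02 to 1.16, where 28% of all genes had an interval above 1) and lower after rescaling (0.908, 0.851 to 0.969). The other genes kept their direction: 8 of 10 were lower at 24 h than at 12 h (8.92% of all genes), from Oas2 at 0.786 (0.648 to 0.953) to Mx1 at 0.375 (0.340 to 0.413), and Oasl2 covered 1 (0.942, 0.885 to 1.00) and was lower after rescaling (0.788, 0.740 to 0.839).

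**Figure D3:**
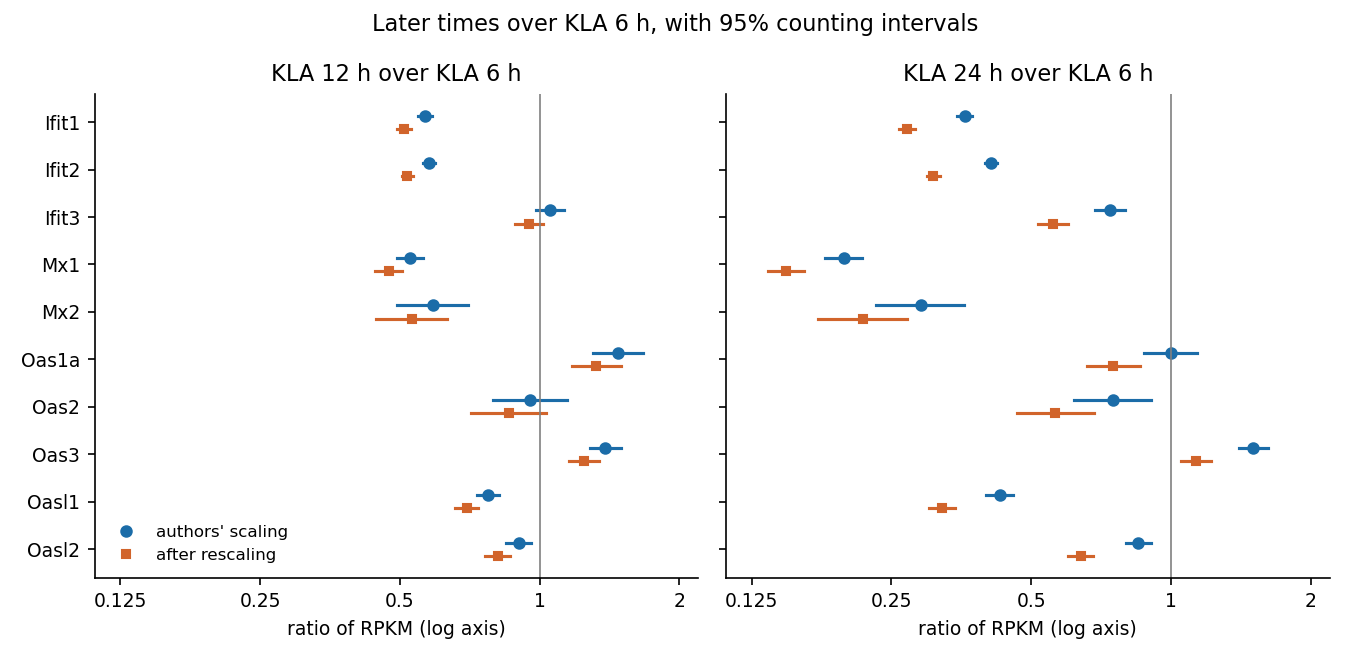
Ratio of RPKM on a log axis, KLA 12 h over KLA 6 h and KLA 24 h over KLA 6 h, for each gene with 95% counting intervals, on the deposited scale (circles) and after rescaling by the median of ratios (squares). The Mx genes, Ifit1, Ifit2 and Oasl1 lie furthest to the left at 24 h, and Oas3 lies right of 1 at both times on both scales.

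The make-up of the response shifted with these courses. In the libraries at 1, 6, 12 and 24 h the 3 Ifit genes summed to 100.02, 3126, 1943 and 1314 RPKM, or 57.9%, 67.0%, 60.9% and 60.7% of the summed RPKM of the 10 genes. The Mx genes made up 4.59% of that sum at 24 h and 10.2% at 6 h, and the 3 Oas genes 12.7% at 24 h and 4.90% at 6 h. In the untreated library for 1 to 12 h the Oasl and Oas genes had made up 47.7% and 41.1%. In order of level per length, Ifit1, Ifit2 and Oasl1 led at 6 h and 12 h and Ifit2, Ifit1 and Oasl2 at 24 h, with Oas2 lowest at 6 h and 12 h and Mx2 at 24 h. At 24 h Ifit2 stood 1.05 times above Ifit1 (1.01 to 1.10), and Oasl2, Ifit3 and Oasl1, at 236 to 240 RPKM, did not differ beyond counting error, nor did Oas2 and Mx2. In the untreated libraries 8 of 9 pairs of neighbours in the order could not be told apart, so no order is read from them beyond Oasl2 and Oas1a standing above the rest.

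Relatives of these genes in the same clusters were also measured, and reads shared between near-identical copies cannot be assigned with certainty. Of 14 relatives listed, 11 were in the table and 7 were tested, of which none passed the 2-fold threshold upwards at 1 h and 5 did at 6, 12 and 24 h, while 1 passed it downwards at 6 h. Of all genes tested 3.65%, 9.35%, 8.88% and 9.98% passed it upwards at 1, 6, 12 and 24 h, and 22.4% downwards at 6 h. I830012O16Rik, named Ifit3b in RefSeq, was at 80.6 RPKM after 6 h and at 0.451 RPKM in untreated cells (ratio 179, 49.2 to 1483, on 2 untreated reads). Gm14446, named Ifit1bl1, was at 56.2 RPKM after 6 h and listed at 0 in the untreated library for 1 to 12 h. It was 91.4-fold higher against a floor of 3 reads, with 73.9 as the lower end of its counting interval. Its ratio to the untreated library for 24 h, which had 5 reads, was 64.3 (27.3 to 200), and it had not fallen by 24 h, when it stood at 72.9 RPKM. Oas1g, the neighbour of Oas1a, was at 28.8 RPKM after 6 h and at 0.683 RPKM in untreated cells (ratio 42.1, 14.1 to 207), and Oas1b at 7.12 and 0.494 RPKM (14.4, 3.67 to 124). Oas1c was at 3.69 RPKM after 6 h and at 1.39 RPKM in untreated cells, and Oas1d, Oas1e, Oas1f and Oas1h were listed at 0 in all 6 libraries.

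Of the interferon genes, Ifnb1 RNA was present at 1 h, when 6 of the 10 genes were not yet above untreated cells. Ifnb1 had 56 reads after 1 h of KLA (30.3 RPKM) and 0 in untreated cells. It was 17.2-fold higher against a floor of 3 reads, with 13.5 as the lower end of its counting interval. After 6, 12 and 24 h it had 3, 0 and 4 reads. Ifng, the interferon of T and NK cells, was listed at 0 at 1 h and had 7, 60 and 76 reads after 6, 12 and 24 h (2.45, 20.3 and 23.6 RPKM), and 0 in both untreated libraries. Ifna4 had 1 read at 6 h, and the other 12 of 15 interferon genes were listed at 0 in all 6 libraries. A listed 0 need not mean an absent RNA here, since Hmgcs1, an enzyme of cholesterol synthesis that every cell uses, was also listed at 0 throughout. Beside Ifng, the T and NK cell markers Cd3d, Cd3e, Cd3g and Nkg7 did not exceed 0.732 RPKM in any library. Of the markers of plasmacytoid dendritic cells, known for high interferon output, Siglech did not exceed 0.174 RPKM and Ccr9 0.768 RPKM. Tcf4 was at 16.5 RPKM after 6 h and at 4.70 RPKM in untreated cells (ratio 3.50, 2.70 to 4.59). Bst2, itself interferon-induced, made up most of that list's sum of 71.5 to 1754 RPKM with KLA and 67.0 to 77.7 RPKM without.

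Of 12 genes of interferon signalling, 1 (Irf1) was at least 2-fold higher at 1 h and 8 were at 6, 12 and 24 h, with none 2-fold lower and with median log2 ratios of -0.04, 2.63, 2.55 and 2.33. Of all genes tested 3.65%, 9.35%, 8.88% and 9.98% were as far above at these times, and 4.09%, 22.4%, 16.3% and 10.6% as far below. Irf1 was at 310 RPKM after 1 h and at 21.2 RPKM in untreated cells (ratio 14.6, 11.9 to 18.1). Stat2, a transcription factor of the interferon response, was at 76.2 RPKM after 6 h and at 5.99 RPKM in untreated cells (12.7, 9.74 to 16.9) and Irf9, its DNA-binding partner, at 45.0 and 11.8 RPKM (3.81, 2.87 to 5.13). At 1 h their ratios were 0.586 (0.377 to 0.901) and 0.874 (0.599 to 1.27), and after rescaling the interval of Stat2 covered 1 (ratio 0.668). Irf7, which sustains interferon output, was at 699 RPKM after 6 h and at 17.5 RPKM in untreated cells (40.0, 31.5 to 51.7), and Usp18, a brake on the receptor, at 382 and 3.59 RPKM (107, 63.3 to 195). At 6 h the receptor chains had smaller ratios than these, with Ifnar1 at 30.8 RPKM after 6 h and at 14.7 RPKM in untreated cells (2.09, 1.78 to 2.45) and Ifnar2 at 120 and 68.3 RPKM (1.76, 1.46 to 2.12). At 24 h Ifnar2 was at 209 RPKM, against 63.5 RPKM in untreated cells (3.28, 2.79 to 3.88), and Ifnar1 at 21.6 RPKM, against 15.9 RPKM (1.36, 1.16 to 1.58).

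Other antiviral effectors and related lists were counted in the same way, and the lists were chosen with earlier results of these data known. Of all genes tested 3.65%, 9.35%, 8.88% and 9.98% passed the 2-fold threshold upwards at 1, 6, 12 and 24 h. Of 19 other antiviral effectors 3 passed it upwards and 1 downwards at 1 h, all 19 passed it upwards at 6 h, and 18 did at 12 h and at 24 h. Isg15, a ubiquitin-like modifier, was at 271 RPKM after 1 h and at 5.41 RPKM in untreated cells (ratio 50.1, 26.2 to 110), and Rsad2, the gene of viperin, at 87.4 and 12.7 RPKM (6.88, 5.61 to 8.51). At 6 h Rsad2 reached 4216 RPKM, against 12.7 RPKM in untreated cells, and Cmpk2, a mitochondrial nucleotide kinase beside it, 1646 RPKM, against 2.28 RPKM. Cytosolic sensors of nucleic acids counted 1 of 8 higher at 1 h and 5, 5 and 6 of 8 at 6, 12 and 24 h, with 1 of 8 at least 2-fold lower at 6 h. Ifih1, the gene of the RNA sensor MDA5, was at 38.4 RPKM after 1 h and at 4.68 RPKM in untreated cells. GBP and immunity-related GTPases, which attack the vacuoles of intracellular microbes, counted 3, 11, 12 and 12 of 12 at 1, 6, 12 and 24 h. Early NF-κB targets such as Tnf, at 5276 RPKM after 1 h and 18.9 RPKM in untreated cells, counted 12 of 12 higher at 1 h and at 6 h and 11 of 12 at 12 h and 24 h. The lists compare libraries that share the untreated controls.

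**Figure D4:**
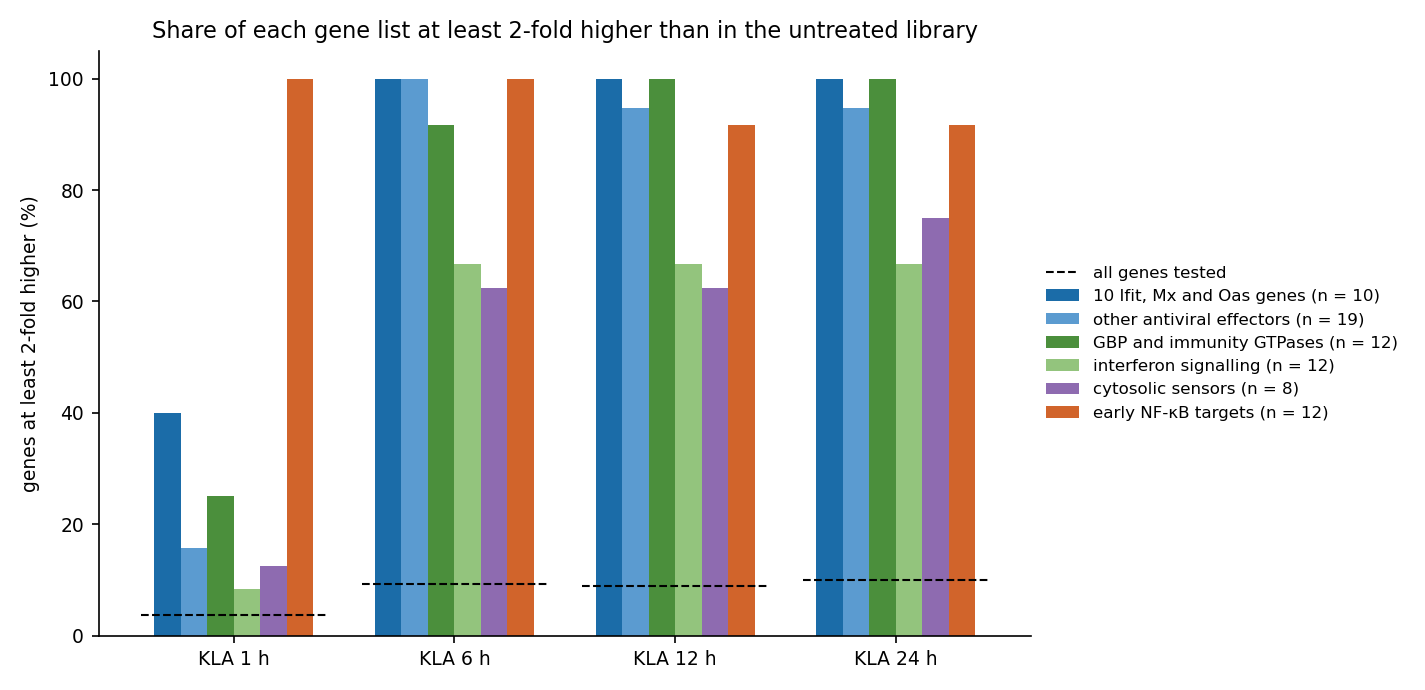
Share (percent) of the tested genes of each list that passed the 2-fold threshold upwards against the untreated library of their period, by time of KLA, with the share of all 10605 genes tested as a dashed line. At 1 h 4 of 10 Ifit, Mx and Oas genes pass, beside 12 of 12 early NF-κB targets and 1 of 12 genes of interferon signalling, and from 6 h all 10 pass.

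The genes whose profile over the 6 libraries was most like the mean log2(RPKM + 1) of the 10 were Ifi204 and Il12a (Pearson r 0.999 each), Olfr56 (0.998), Znfx1 (0.996) and Parp14 (0.995), among 617 genes that ranged over at least 3 log2 units. These correlations describe 6 libraries that share 1 step between 1 h and 6 h. Within the 10, r with their own mean ran from 0.936 for Ifit1 and 0.960 for Oasl1, the genes high at 1 h, to 0.999 for Ifit2. Ifi204, a DNA-sensing PYHIN protein, was at 382 RPKM after 6 h and at 18.4 RPKM in untreated cells, and Il12a, the p35 chain of interleukin-12, at 89.2 and 0 RPKM. Znfx1, a helicase that binds viral RNA, was at 102 and 11.7 RPKM.

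Peaks of the lipid regulators LXR and SREBP1 lay near some of the 10 start sites. An LXR peak was centred within 10 kb of the start of 5 of 10 genes (Ifit2, Mx1, Mx2, Oas3 and Oasl1), while 75.5% of all genes tested had one. An SREBP1 peak was within 10 kb of 4 of 10 (Ifit1, Ifit3, Mx2 and Oas3), while 59.2% of all genes tested had one. With 10 genes these shares were not tested, and the lists have no replicate. Mx2 and Oas3 had both factors, as 49% of all genes tested did, and Oas1a, Oas2 and Oasl2 had neither. Within 2 kb the counts were 4 of 10 for LXR and 4 of 10 for SREBP1, beside 59.3% and 47.9% of all genes, and within 50 kb they were 10 and 7, beside 92.8% and 82.4%.

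The peaks nearest the starts were of ordinary height for their lists, by the authors' tag counts scaled to 10000000 tags. At Ifit2 an LXR peak of 16 tags was centred 30 bases after the annotated start (chr19:34625122-34625306, mm9), and at Oas3 one of 26.7 tags 27 bases before it (chr5:121227603-121227787). Mx2 had LXR peaks of 26.7, 56 and 16 tags centred 46, 949 and 2226 bases before its start, and Oasl1 had peaks of 24 and 33.3 tags 268 and 1083 bases before its start and one of 29.3 tags 3692 bases after it. Mx1 had peaks of 30.7 and 37.3 tags 5247 and 9759 bases upstream. The 12 LXR peaks had 16 to 56 tags, and the median of all 40660 LXR peaks was 28. The 4 SREBP1 peaks had 9.43 to 11.1 tags, with a median of 11.1 over all 13984, and were centred 55 bases after the start of Ifit1 (chr19:34715337-34715531), 660 after that of Ifit3, 382 after that of Oas3 and 1085 before that of Mx2. At Mx2 the SREBP1 peak and an LXR peak shared 53 bases, 27.3% of the SREBP1 peak and 28.8% of the LXR peak. No other pair within 10 kb of the starts overlapped. By title these cells had GW3965 and not KLA, so the peaks stand beside the RNA of other cultures. The relation of the peaks to the KLA response was not tested.

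**Figure D5:**
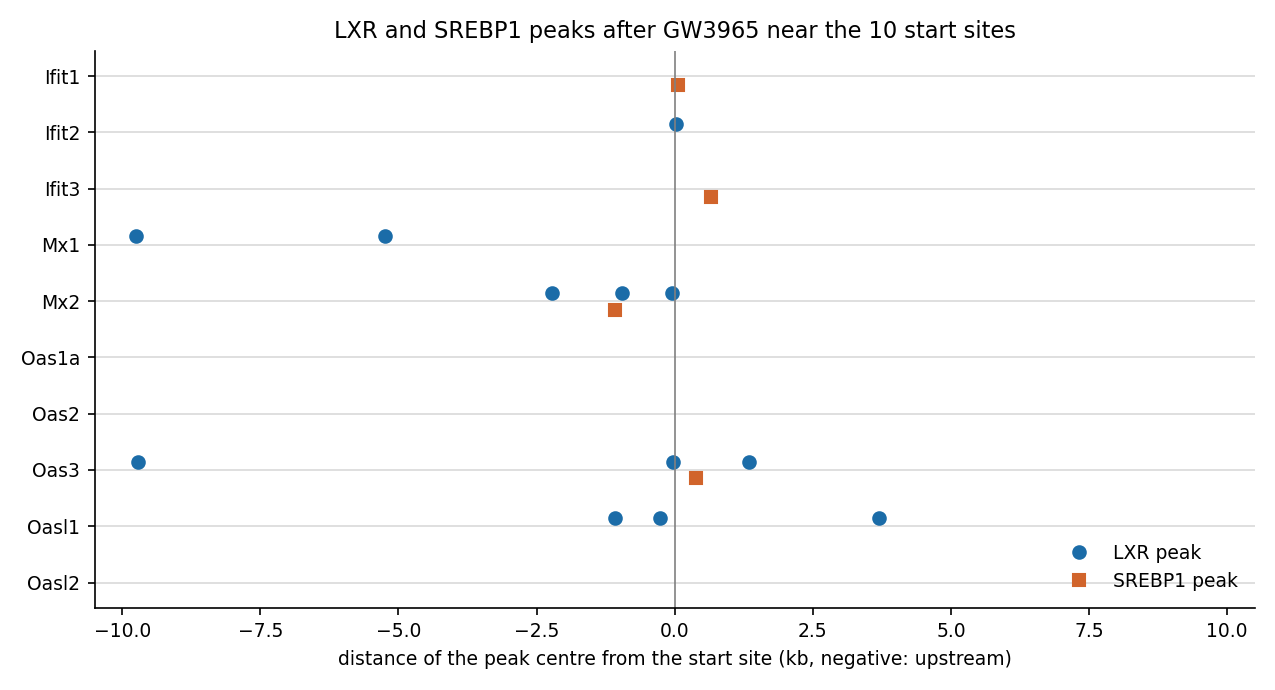
Distance in kb of LXR peak centres (circles) and SREBP1 peak centres (squares) from the annotated start site of each gene, within 10 kb, negative values being upstream. LXR peaks stand at 5 genes and SREBP1 peaks at 4, both at Mx2 and Oas3, and none at Oas1a, Oas2 and Oasl2.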

How the data were processed

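The authors deposited RNA values as RPKM for 33022 transcripts. The submitters' processing notes name Bowtie 0.12.7, STAR, HOMER and build mm9 and give them no roles, and the sources used here do not say if counting used strand. Reads were recovered from RPKM and transcript length, with the value of 1 read taken as the commonest among the lowest products of these. In each of the 6 libraries 99.97% of values came out whole within 0.01 read. The library totals were inferred from the value of 1 read. A symbol with several transcripts was read from that with the highest mean RPKM, and a gene was tested if 2 libraries reached 1 RPKM. Counts of genes use a 2-fold difference of log2(RPKM + 1), which understates changes of low genes, and plain ratios carry exact conditional binomial (Clopper-Pearson) 95% intervals. KLA at 1, 6 and 12 h was set against 1 untreated library and KLA at 24 h against the other.

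Peaks were called with HOMER, per the file headers, at a false discovery rate of 0.001, 4-fold over input and over 10000 bases around each peak. The authors' tag counts are a signal normalised to 10000000 tags. The deposited fold over input is a ratio, and the deposited peak score is a value of the authors' caller. The SREBP1 tag directory is named as combined. The LXR sample is titled as given GW3965 while its treatment characteristic reads as control, and its header names a 24 h KLA input.

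The 10 genes and the 7 other gene lists and 6 marker lists were chosen with earlier results of these data known. Genes named from the lists were the interferon genes, receptor chains, Stat2 and Irf9, and up to 5 per list of highest RPKM at KLA 6 h. Promoters are RefSeq sequences of build GRCm38.p6, matched by symbol and not lined up with mm9 peaks. Alternatives were pseudocounts of 0.1 and 3, median-of-ratios rescaling, the other untreated library, the lowest transcript, no filter on low values, and other peak windows and thresholds. The interval code was tested on simulated data. Python 3.11.15, numpy 2.4.6, scipy 1.17.1 and pandas 2.3.3 were used. The other samples of the series were not analysed here, and some genes within the lists are not reported here.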

Additional observations from a re-analysis of the deposited data

How the results depend on the processing

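All 10 genes stayed at least 2-fold higher at 6, 12 and 24 h with pseudocounts of 0.1 and 3, after rescaling, against the other untreated library and with the lowest transcript. At 1 h the count of 4 was 2 against the other untreated library and 3 with a pseudocount of 3. The median log2 ratio at 6 h was 5.24 with a pseudocount of 3, instead of 6.21. After rescaling, the count of genes higher at 24 h than at 12 h was 0 instead of 1, and that of genes lower was 10 instead of 8. With a window of 50 kb, 10 genes had an LXR peak and 7 an SREBP1 peak, beside 92.8% and 82.4% of all genes tested. Within 10 kb, the LXR and SREBP1 peaks at Mx2 did not overlap by 50% of each, a count of 0 instead of 1. Of 67 counts and medians under these alternatives the other 61 stayed within 1.5 times (counts) or within the median counting interval of the 10 genes (medians). Of 200 values of single genes against untreated cells under these alternatives, 197 kept their sign, and the 3 that did not were at 1 h. Of the same 200 values, 185 stayed within the counting interval of the main value and 15 moved outside it. No paired analysis was possible because each condition had 1 library. At inferred totals of 2205187 to 2674826 reads a library, differences of Ifit3 and Mx1 at 1 h were not resolved, and spread between cultures is unknown throughout.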

Other observations

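Outside the window of 10 kb, 6 LXR peaks lay 23451 to 34805 bases upstream of the annotated start of Ifit2, with 21.3 to 150.6 tags, and 5 of them stood above percentile 90 of the LXR list. The LXR peak at chr19:34591803-34591987 overlapped an SREBP1 peak of 14.8 tags (chr19:34591724-34591918), at percentile 83.2 of its list. An LXR peak of 209.3 tags, at percentile 98.2 of its list, lay 30437 bases upstream of Oas1a. A peak of 100 tags, at percentile 93.4, lay 41476 bases upstream of Oasl2. Which genes these peaks belong to was not tested. Among the relatives, I830012O16Rik (Ifit3b) had an LXR peak at -36 bases from its start and Oas1b an SREBP1 peak at -326 bases.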
